A study of Mus musculus with 18 samples.

Results

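Late brain development was examined by setting the brain RNA libraries of embryonic days 16 and 18 (E16 and E18) against those of embryonic days 13 and 14 (E13 and E14). The labels give all 4 libraries as wild-type mouse brain, with 1 library per stage and therefore 2 stages on each side. They carry no treatment. Total RNA was taken with Trizol, and 2 ug of it went into each library. The design text of the series speaks of cortex and of triplicates, while the labels say brain and the stage table holds 1 library for each day, so pooling of animals and the part of the brain taken are not given. The members were the 12912 of 32941 genes whose RPKM (read counts scaled by exon length and library size) averaged at least 1 over these 4 libraries, out of 18 libraries in the series. The genes nearest that limit averaged 1.00015 to 1.00076 RPKM inside it and 0.998734 to 0.999169 RPKM outside it.

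In the embryonic mouse forebrain, radial glia line the ventricle, divide, and give rise to neurons either directly or through intermediate progenitors. Neurons of the deep cortical layers are born before those of the upper layers. As neurogenesis draws to a close, the remaining progenitors turn to making astrocytes and oligodendrocyte precursors, while the neurons already born extend axons and assemble synapses. E13 and E14 fall within the main period of cortical neurogenesis, and E18 lies shortly before birth.

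Read totals were 41913827 at E16 and 54373317 at E18, against 53270597 at E13 and 52452492 at E14. Forebrain markers were present in all 4 libraries: Emx1, a transcription factor of the dorsal telencephalon, was at or above 16.1 RPKM in each. Markers of other brain regions were low: En2, a midbrain and hindbrain factor, stayed at or below 0.0323 RPKM. On the list named for regions outside the forebrain only 2 of 25 genes reached the 1 RPKM limit, Lhx9 and Tcf7l2. Whether RNA of these 2 genes came from outside the forebrain was not tested. The libraries also differed in the sex chromosomes' genes. Xist, the X-inactivation RNA of female cells, had 43.5 and 0.0523 RPKM at E16 and E18, against 21.2 and 1.604 RPKM at E13 and E14, and the Y-linked gene Ddx3y had 0 and 3.51 RPKM at E16 and E18, against 2.95 and 5.14 RPKM at E13 and E14. These values do not line up with the 2 sides, but E16 and E18 lie at opposite ends of them. The step from E16 to E18 therefore differs in these sex chromosome genes as well as in age. The part of sex in that step was not tested. In bulk RNA, fewer cells of a type and less RNA per cell cannot be told apart, which holds for every gene below. Because each stage is 1 library, no value has a replicate error of its own, and p-values set a difference against the departures of these 4 libraries from the fitted line or side means.

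The brain at E16 and E18 had less RNA of dividing progenitors and more RNA of maturing neurons and of glia. Taking the stages as sides, limma called 0 of 12912 genes at an adjusted p under 0.05 (0%), with 2780 genes (21.5%) at an unadjusted p under 0.05, and limma-voom on the recovered reads also called 0. The E16 and E18 libraries lay far apart: the standard deviation across genes of E18 minus E16 was 0.538 on the log2(RPKM + 1) scale, and that of E14 minus E13 was 0.252. A straight line on embryonic day through the same 4 libraries called 1577 genes that rose (12.2%) and 1769 that fell (13.7%) at a limma adjusted p under 0.05, and these calls are what "rose" and "fell" mean below. The line was taken up for calls after the test by sides had called none. Its count of calls depends on single libraries: 244 genes were called without E18, and 2 genes were called without E14. The smallest adjusted p that any gene reached was 0.0123, shared by 384 genes.

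Genes that rose had a median difference of 0.81 between sides on the log2(RPKM + 1) scale, made of a step of 0.47 at E16 above the mean of E13 and E14 and a further 0.62 from E16 to E18. Genes that fell had a median difference of -0.68, with steps of -0.39 and -0.59. The median over all genes tested was -0.063. Of the risers 493 changed by at least 2-fold between side means, and of the fallers 420 did. The sides did not overlap in 3657 genes that were higher (28.3%) and 4525 that were lower (35%). A gap of at least 2-fold between the nearest stages of the 2 sides was found in 73 higher genes (0.565%) and 46 lower genes (0.356%).

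**Figure D1:**
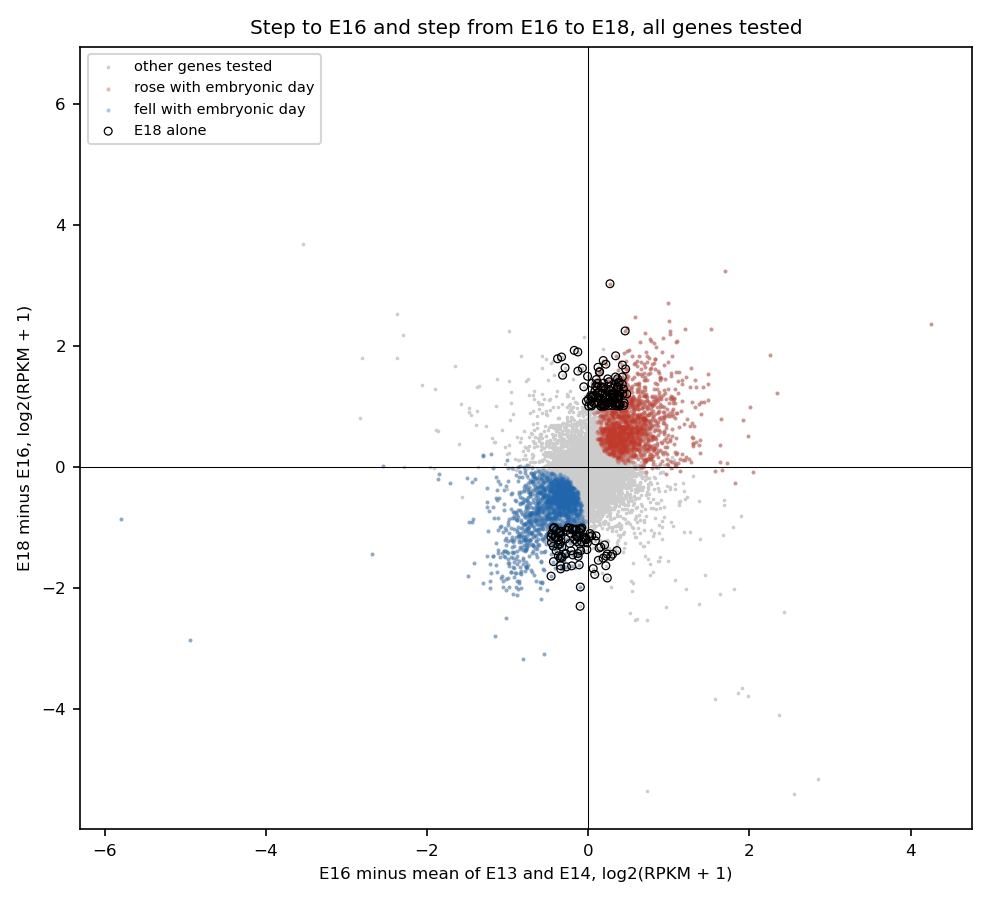
Each point is 1 of the 12912 genes tested, with the step from the mean of E13 and E14 to E16 on the horizontal axis and the step from E16 to E18 on the vertical axis, both as differences of log2(RPKM + 1). Genes that rose (red, 1577) lie to the upper right, genes that fell (blue, 1769) to the lower left, and circles mark the 204 genes set apart at E18 alone (113 higher, 91 lower).

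Genes of cell division fell together. All 32 listed mitosis genes fell, with a median difference of -1.75 on the log2(RPKM + 1) scale against -0.063 over all genes. Cdc20, the activator of the anaphase-promoting complex (chr4:118432901-118437352 in mm10, minus strand), had 31.98 and 7.75 RPKM at E16 and E18, against 74.8 and 86.01 RPKM at E13 and E14. Its line sloped by -0.66 ± 0.082 log2 units per day (SE, limma adjusted p = 0.0123). Ube2c, the ubiquitin-conjugating enzyme of the same complex, had 25.03 and 5.47 RPKM at E16 and E18, against 58.6 and 60.2 RPKM at E13 and E14. Ccnb1, the mitotic cyclin B1, had 12.4 and 2.39 RPKM at E16 and E18, against 27.7 and 26.1 RPKM at E13 and E14. In each of these genes E18 was the lowest library, E16 lay between, and the sides did not overlap. Aurkb, the Aurora kinase of the chromosomal passenger complex, had 10.3 and 1.77 RPKM at E16 and E18, against 20.4 and 23.6 RPKM at E13 and E14. Plk1, the polo-like kinase of mitotic entry, had 21.4 and 6.298 RPKM at E16 and E18, against 46.4 and 50.8 RPKM at E13 and E14. Top2a, the topoisomerase that disentangles sister chromatids, had 13.8 and 2.76 RPKM at E16 and E18, against 29.4 and 27.1 RPKM at E13 and E14. Further genes of division stood among the 10 largest falls. Spc24, a subunit of the kinetochore's Ndc80 complex, had 5.04 and 1.01 RPKM at E16 and E18, against 15.9 and 14.4 RPKM at E13 and E14, and its slope was -0.64 ± 0.055 log2 units per day (SE). Hmgb2, a chromatin protein of proliferating cells, had 73.7 and 12.3 RPKM at E16 and E18, against 149 and 153 RPKM at E13 and E14. With E18 left out the line called 20 of the 32, all falling, with all 32 at an unadjusted p under 0.05 in limma. The limma test of the lone E16 library against E13 and E14, which assumes that E16 varies as the others do, called 30 of the 32, all lower. With E14 left out the line called 0 of the 32 after adjustment, with all 32 at an unadjusted p under 0.05 in limma.

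The promoters of mitosis genes are shown because these genes moved as a block, and in mammals such genes are known to share CCAAT boxes, bound by NF-Y, and the CHR element, bound by the DREAM and MuvB complexes. The 150 bases before the RefSeq transcription start are given for the 3 genes of the mitosis list with the largest falls, in build GRCm38.p6, 5′ to 3′ on the gene's own strand, with CCAAT boxes (CCAAT or ATTGG) and CHR elements (TTTGAA or TTCAAA) in capitals.
Cdc20, chr4:118437344-118437493, minus strand: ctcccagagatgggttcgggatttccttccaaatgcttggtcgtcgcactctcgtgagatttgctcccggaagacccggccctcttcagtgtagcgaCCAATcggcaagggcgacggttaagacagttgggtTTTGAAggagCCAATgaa
Ube2c, chr2:164769779-164769928, plus strand: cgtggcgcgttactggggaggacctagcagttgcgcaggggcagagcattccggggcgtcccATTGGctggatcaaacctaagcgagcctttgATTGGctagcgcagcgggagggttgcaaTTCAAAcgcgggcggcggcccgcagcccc
Ccnb1, chr13:100786487-100786636, minus strand: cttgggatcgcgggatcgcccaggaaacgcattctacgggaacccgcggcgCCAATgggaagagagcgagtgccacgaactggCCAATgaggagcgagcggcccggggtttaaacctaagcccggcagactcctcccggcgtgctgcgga
Each of the 3 held 2 CCAAT boxes, Cdc20 and Ube2c held 1 CHR element each, and the Ccnb1 window held 0 in these letters. Over the 250 bases before the start, read on both strands, CHR letters were found in 10 of 27 mitosis genes with a promoter in the table (37%), against 1173 of 9655 tested genes (12.1%) and 4934 of all 27025 genes (18.3%). CCAAT letters were found in 19 of the 27 (70.4%), against 41% of tested genes and 37.5% of all genes. The capitals of the 2 motifs do not overlap in these 3 windows. A match of letters is a description and no evidence of binding.

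DNA replication genes fell as well, 32 of 37 tested, with a median of -1.19 and none that rose. Mcm3, a subunit of the replicative helicase, had 14.8 and 3.73 RPKM at E16 and E18, against 30.6 and 36.7 RPKM at E13 and E14. Uhrf1, which brings the maintenance DNA methyltransferase to newly copied DNA, had 15.3 and 3.67 RPKM at E16 and E18, against 32.1 and 34.5 RPKM at E13 and E14. Rrm2, the small subunit of ribonucleotide reductase, had 18.3 and 5.92 RPKM at E16 and E18, against 40.5 and 37.5 RPKM at E13 and E14. Mcm2, another helicase subunit, had 10.6 and 2.44 RPKM at E16 and E18, against 19.8 and 21.7 RPKM at E13 and E14, and Cdt1, which licenses origins, had 6.28 and 2.14 RPKM at E16 and E18, against 12.3 and 15.8 RPKM at E13 and E14. Each of these genes stood lower in E16 than in E13 and E14 and lower again in E18. Gins2, a further helicase cofactor, was not called (adjusted p = 0.0538 in limma), with 49.2 and 24.3 RPKM at E16 and E18, against 49.4 and 57.2 RPKM at E13 and E14, so that its E16 value lay close to E13. Orc6 and Chaf1a were not called either. Without E18 the line called 3 of the 37, all falling, and the test of E16 against E13 and E14 called 25, all lower.
E2F sites, the binding letters of the S-phase regulators, were searched as TTTCCCGC, TTTGGCGC and TTTCGCGC on both strands of the 250 bases before the start. They were found in 9 of 29 replication genes with a promoter (31%), 1 of 27 mitosis genes (3.7%), 339 of 9655 tested genes (3.51%) and 480 of all 27025 (1.78%). The 2 replication genes with the largest falls and such a site in the last 150 bases are shown, in GRCm38.p6, with the site in capitals.
Mcm5, chr8:75109359-75109508, plus strand: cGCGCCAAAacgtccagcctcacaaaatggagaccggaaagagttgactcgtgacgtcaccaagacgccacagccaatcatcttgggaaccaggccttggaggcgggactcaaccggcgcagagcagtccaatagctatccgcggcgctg
Mcm6, chr1:128359706-128359855, minus strand: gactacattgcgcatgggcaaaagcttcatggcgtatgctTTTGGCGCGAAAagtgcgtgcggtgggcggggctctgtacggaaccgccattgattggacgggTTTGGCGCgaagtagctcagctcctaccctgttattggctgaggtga
Mcm5, a helicase subunit whose window holds 1 site, had 19.8 and 5.61 RPKM at E16 and E18, against 36.9 and 40.6 RPKM at E13 and E14. Mcm6, whose window holds 3 matches of which 2 overlap on opposite strands, had 16.6 and 3.69 RPKM at E16 and E18, against 25.7 and 25.7 RPKM at E13 and E14.

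The regulators that carry cells into S phase followed. Of 19 listed G1 cyclins, kinases and inhibitors, 13 fell and none rose. These calls depended on the E18 library. The median slope of the list was -0.22 log2 units per day, and -0.17 with E18 left out. Ccnd2, a D-type cyclin of cortical progenitors, had 28.5 and 10.3 RPKM at E16 and E18, against 49.9 and 50.3 RPKM at E13 and E14. E2f1, the transcription factor that switches on replication genes, had 9.36 and 3.78 RPKM at E16 and E18, against 16.1 and 19.8 RPKM at E13 and E14, and Cdk2, the kinase of S-phase entry, had 4.35 and 1.19 RPKM at E16 and E18, against 8.02 and 7.82 RPKM at E13 and E14. The inhibitors of these kinases were among those not called: Cdkn1c had 36.5 and 33.3 RPKM at E16 and E18, against 49.6 and 58.7 RPKM at E13 and E14, Cdkn1b had 27.01 and 15.4 RPKM at E16 and E18, against 27.6 and 30.8 RPKM at E13 and E14 and Cdkn1a had 3.95 and 8.03 RPKM at E16 and E18, against 4.05 and 3.68 RPKM at E13 and E14. Cdkn1a was the one of them with its highest value at E18.

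Progenitor identity genes were lower at E16 and E18. Of 16 proneural and intermediate progenitor genes 13 fell, 0 rose, and the median difference was -1.53. Neurog2, the proneural factor that commits cortical progenitors to glutamatergic fate, had 68.8 and 6.69 RPKM at E16 and E18, against 119 and 123 RPKM at E13 and E14, with a slope of -0.78 ± 0.14 log2 units per day (SE, limma adjusted p = 0.0161). Neurog1, its close relative, had 2.604 and 0.0327 RPKM at E16 and E18, against 8.41 and 9.87 RPKM at E13 and E14. Eomes (Tbr2), the defining factor of intermediate progenitors, had 45.3 and 4.41 RPKM at E16 and E18, against 59.4 and 74.5 RPKM at E13 and E14. For Eomes and Neurog2 the step from E16 to E18 was much the larger, -3.10 and -3.18 log2 units, against -0.55 and -0.80 for the step to E16. Nhlh1, a factor switched on as progenitors become neurons, had 16.1 and 1.46 RPKM at E16 and E18, against 33.9 and 40.7 RPKM at E13 and E14, and Gadd45g, a target of proneural factors, had 47.8 and 11.3 RPKM at E16 and E18, against 82.2 and 97.5 RPKM at E13 and E14. Tead2, a transcriptional effector of the Hippo pathway, had 23.6 and 5.63 RPKM at E16 and E18, against 47.4 and 53.5 RPKM at E13 and E14. The 3 members not called were Insm1, Neurod4 and Neurod1, all of which stood lower at E18 alone and are described below.

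Radial glia and stem cell genes split. Of 23 genes 13 fell and 3 rose, with a median of -1.08. Pax6, the factor that specifies dorsal progenitors, had 6.18 and 1.28 RPKM at E16 and E18, against 10.6 and 11.9 RPKM at E13 and E14. Sox3, a factor of the neural stem state, had 20.1 and 4.72 RPKM at E16 and E18, against 40.4 and 57.8 RPKM at E13 and E14. Nes, the intermediate filament nestin, had 22.9 and 10.2 RPKM at E16 and E18, against 39.7 and 53.6 RPKM at E13 and E14, and Vim, vimentin, had 102 and 30.5 RPKM at E16 and E18, against 138 and 159.9 RPKM at E13 and E14. Gli3, the repressor that sets dorsal fate against Sonic hedgehog, had 3.31 and 0.3702 RPKM at E16 and E18, against 6.52 and 7.02 RPKM at E13 and E14. The 3 that rose were Tnc, Slc1a3 and Mfge8. Tnc, the matrix protein tenascin C of outer radial glia and astrocytes, had 17.3 and 22.5 RPKM at E16 and E18, against 5.64 and 4.204 RPKM at E13 and E14, and Slc1a3, the glutamate transporter GLAST shared by radial glia and astrocytes, had 10.2 and 15.9 RPKM at E16 and E18, against 6.92 and 7.15 RPKM at E13 and E14. Those genes are expressed by astrocytes too. Fabp7, the fatty acid binding protein of radial glia, was not called, with 391 and 537 RPKM at E16 and E18, against 434 and 420.2 RPKM at E13 and E14. With E18 left out, the line called 1 of the 23 genes as falling and 1 as rising, and the test of E16 against E13 and E14 called 14 lower and 2 higher.

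The signalling pathways of progenitors differed in their counts. In the Notch pathway 12 of 20 genes fell and 2 rose (median -0.80). The ligands Dll1 and Dll3 fell: Dll1 had 9.92 and 5.19 RPKM at E16 and E18, against 18.95 and 20.5 RPKM at E13 and E14, and Dll3 had 6.41 and 4.19 RPKM at E16 and E18, against 13.7 and 16.4 RPKM at E13 and E14. Mfng, the glycosyltransferase that tunes Notch receptors, had 19.9 and 4.15 RPKM at E16 and E18, against 35.01 and 39.2 RPKM at E13 and E14. The effectors Hes1 and Hes5, repressors of proneural genes, fell too. Hes1 had 8.32 and 3.39 RPKM at E16 and E18, against 16.3 and 20.8 RPKM at E13 and E14, while Hes5 had 18.1 and 21.01 RPKM at E16 and E18, against 44.5 and 47.8 RPKM at E13 and E14, nearly all of its difference lying between E14 and E16. The call of Hes5 was lost with median-ratio or upper-quartile scaling. Rbpj, the DNA-binding partner of Notch, was not called over the line, with 4.22 and 1.23 RPKM at E16 and E18, against 3.53 and 4.32 RPKM at E13 and E14. Among Wnt ligands and targets 7 of 16 fell (43.8%) and 1 rose (6.25%), against 13.7% and 12.2% of all genes tested. The receptor Fzd8 had 5.39 and 2.24 RPKM at E16 and E18, against 11.6 and 13.6 RPKM at E13 and E14, the secreted inhibitor Sfrp1 had 29.1 and 14.2 RPKM at E16 and E18, against 46.4 and 52.3 RPKM at E13 and E14, and Dkk3, the member that rose, had 7.003 and 14.8 RPKM at E16 and E18, against 4.81 and 5.403 RPKM at E13 and E14. In the FGF and Hedgehog list 6 of 19 fell and 3 rose (median 0.11). Fgf15, a ligand of forebrain progenitors, had 0.367 and 0.192 RPKM at E16 and E18, against 4.11 and 3.88 RPKM at E13 and E14, which placed nearly the whole of its fall before E16. Fgfr3, a receptor of progenitors and astrocytes, had 8.65 and 3.85 RPKM at E16 and E18, against 18.98 and 20.3 RPKM at E13 and E14. Smo, the Hedgehog transducer, had 9.95 and 3.68 RPKM at E16 and E18, against 15.5 and 17.02 RPKM at E13 and E14, and Gli2 had 3.58 and 0.9398 RPKM at E16 and E18, against 6.19 and 7.09 RPKM at E13 and E14. Etv4, a transcription factor downstream of FGF receptors, rose, with 2.95 and 8.91 RPKM at E16 and E18, against 1.18 and 1.73 RPKM at E13 and E14. On the list of BMP signalling and Id genes 3 of 14 fell (21.4%) and 2 rose (14.3%), with a median of -0.069. Over all genes tested 13.7% fell and 12.2% rose, so these counts lie near that share. The Id genes, inhibitors of basic helix-loop-helix factors, moved in opposite directions. Id4 fell, with 30.4 and 16.3 RPKM at E16 and E18, against 79.3 and 87.5 RPKM at E13 and E14, and Id1 and Id3 rose: Id3 had 13.2 and 19.6 RPKM at E16 and E18, against 7.201 and 7.81 RPKM at E13 and E14 and Id1 had 12.5 and 17.6 RPKM at E16 and E18, against 7.78 and 7.49 RPKM at E13 and E14.

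Of 17 tested genes that time progenitor output, 10 fell and none rose. Hmga2, a chromatin protein of young stem cells that let-7 represses, had 0.289 and 0.0706 RPKM at E16 and E18, against 3.21 and 3.23 RPKM at E13 and E14. The RNA-binding proteins Igf2bp1 and Igf2bp2 had falling lines: Igf2bp1 had 4.23 and 1.795 RPKM at E16 and E18, against 8.78 and 7.88 RPKM at E13 and E14 and Igf2bp2 had 5.52 and 2.02 RPKM at E16 and E18, against 10.9 and 8.64 RPKM at E13 and E14. Ezh2, the histone H3 lysine methyltransferase of Polycomb, had 24.1 and 8.95 RPKM at E16 and E18, against 36.7 and 30.7 RPKM at E13 and E14. Dmrta2, a factor of the dorsal midline gradient, had 10.7 and 2.45 RPKM at E16 and E18, against 17.4 and 22.8 RPKM at E13 and E14. The nuclear factor I genes, which act in the turn to gliogenesis, did not move together. Nfia fell, with 19.9 and 7.71 RPKM at E16 and E18, against 22.5 and 24.6 RPKM at E13 and E14, while Nfib was not called, with 46.3 and 15.2 RPKM at E16 and E18, against 42.5 and 42.2 RPKM at E13 and E14, and Nfix was not called, with 121 and 87.5 RPKM at E16 and E18, against 63.1 and 85.3 RPKM at E13 and E14. Nfia and Nfib stood lower at E18 alone, and Nfix was highest at E16.

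**Figure D2:**
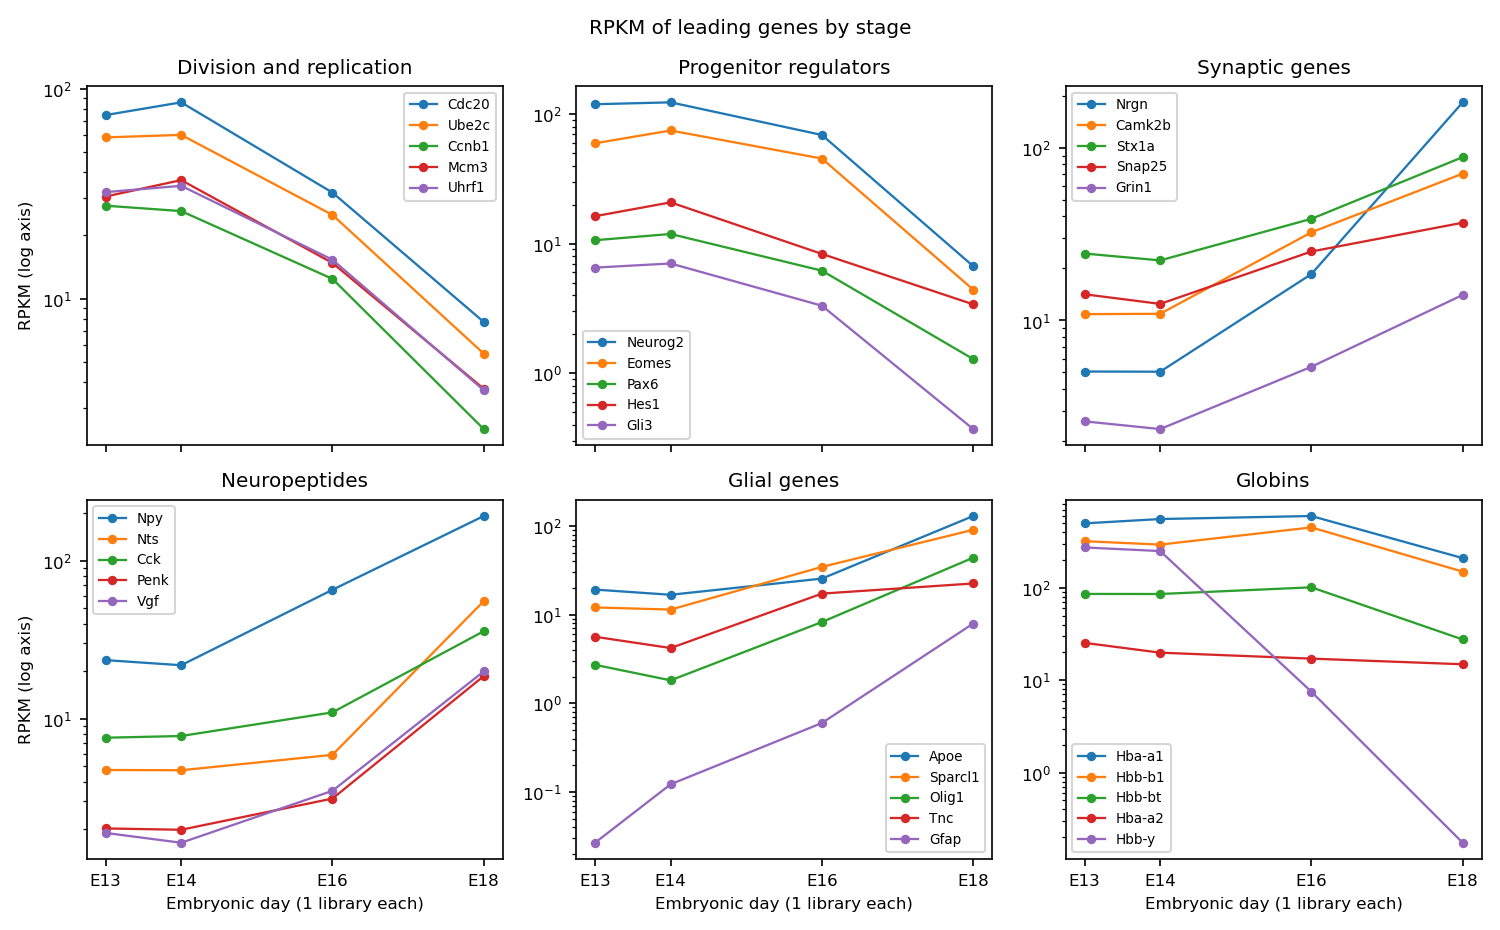
RPKM (log axis) of leading genes at each embryonic day, with 1 library per point and days spaced to scale, in 6 groups. Division and progenitor genes are lowest at E18 and synaptic genes, neuropeptides and glial genes highest there, while among the globins plotted only Hbb-y drops steeply between E14 and E16.

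Genes of the synapse rose. Of 26 genes of synaptic vesicle release 20 rose and 1 fell (median 0.81), and of 31 genes of glutamate receptors and the postsynaptic density 22 rose and 0 fell (median 0.78). Nrgn, neurogranin, a postsynaptic protein that binds calmodulin (chr9:37544492-37552904 in mm10, minus strand), had 18.6 and 183 RPKM at E16 and E18, against 5.06 and 5.05 RPKM at E13 and E14. That gave a side difference of 3.31 log2 units and a slope of 1.00 ± 0.12 per day (SE, limma adjusted p = 0.0123), and E18 lay far above E16. Camk2b, the beta subunit of calcium/calmodulin kinase II, had 32.4 and 70.7 RPKM at E16 and E18, against 10.9 and 10.9 RPKM at E13 and E14. Its partner Camk2a was not called, with 7.02 and 23.1 RPKM at E16 and E18, against 8.27 and 7.299 RPKM at E13 and E14, the E16 value lying below E13 and E14. Grin1, the obligatory subunit of NMDA receptors, had 5.396 and 14.1 RPKM at E16 and E18, against 2.61 and 2.35 RPKM at E13 and E14, and Grm5, a metabotropic receptor, had 2.73 and 7.05 RPKM at E16 and E18, against 1.19 and 0.9005 RPKM at E13 and E14. Cacng3, an auxiliary subunit of AMPA receptors, had 4.15 and 10.4 RPKM at E16 and E18, against 1.78 and 1.74 RPKM at E13 and E14, and Dlg2, a postsynaptic scaffold, had 4.69 and 12.9 RPKM at E16 and E18, against 2.52 and 1.99 RPKM at E13 and E14. On the presynaptic side, Stx1a and Snap25 are parts of the SNARE complex that drives vesicle fusion. Stx1a had 38.7 and 88.1 RPKM at E16 and E18, against 24.4 and 22.3 RPKM at E13 and E14, and Snap25 had 25.1 and 36.8 RPKM at E16 and E18, against 14.2 and 12.5 RPKM at E13 and E14. Cplx1, complexin 1, which clamps that complex, had 56.04 and 88.5 RPKM at E16 and E18, against 28.4 and 28.2 RPKM at E13 and E14. Syn1, synapsin 1, had 35.9 and 76.1 RPKM at E16 and E18, against 22.3 and 21.3 RPKM at E13 and E14, and Syt1, the calcium sensor of release, had 12.6 and 28.3 RPKM at E16 and E18, against 9.56 and 7.35 RPKM at E13 and E14. Without E18 the line called 1 of the 26 vesicle genes and 2 of the 31 postsynaptic genes, all rising, and the test of E16 against E13 and E14 called 9 and 13 of them, all higher.

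Inhibitory signalling genes rose in 8 of 13 cases and fell in none (median 0.77). Gabra5, a GABA-A receptor subunit, had 5.33 and 21.1 RPKM at E16 and E18, against 3.05 and 2.45 RPKM at E13 and E14, and Gabbr2, a subunit of the GABA-B receptor, had 4.26 and 13.6 RPKM at E16 and E18, against 1.92 and 1.71 RPKM at E13 and E14. The chloride extruder Slc12a5 (KCC2), which makes GABA hyperpolarising in mature neurons, rose, with 5.74 and 17.1 RPKM at E16 and E18, against 4.89 and 3.13 RPKM at E13 and E14. The chloride importer Slc12a2 (NKCC1) was not called (limma adjusted p = 0.0611), with 3.54 and 2.78 RPKM at E16 and E18, against 6.76 and 3.76 RPKM at E13 and E14. In RPKM the extruder was above the importer at E16 and E18 and below it at E13 and E14. Voltage-gated channels rose in 14 of 25 cases and fell in none. The calls of the line in both lists depended on the E18 library. With E18 left out the median slope of the channels was 0.12 log2 units per day, against 0.16 with all 4 libraries. For the inhibitory list these slopes were 0.16 and 0.20. Scn2a, the sodium channel of young axons, had 3.13 and 5.87 RPKM at E16 and E18, against 1.52 and 1.07 RPKM at E13 and E14, and Cacna1b, the N-type calcium channel, had 8.83 and 10.04 RPKM at E16 and E18, against 4.23 and 4.57 RPKM at E13 and E14.

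Neuropeptides and granins rose in 10 of 16 cases and fell in none, and their median step was 1.08 log2 units from E16 to E18 against 0.26 to E16. Npy, neuropeptide Y, had 65.4 and 192 RPKM at E16 and E18, against 23.5 and 21.8 RPKM at E13 and E14. Vgf, a neurosecretory granule protein, had 3.499 and 19.9 RPKM at E16 and E18, against 1.89 and 1.64 RPKM at E13 and E14. In Npy the rise was under way at E16, whereas most of the rise of Vgf came between E16 and E18.

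The neuronal cytoskeleton and axon growth list rose in 12 of 25 cases and fell in 2 (median 0.54). Most of these calls depended on the E18 library. The median slope of the list was 0.15 log2 units per day, and 0.11 with E18 left out. Mapt, the microtubule protein tau, had 137 and 255 RPKM at E16 and E18, against 69.04 and 59.04 RPKM at E13 and E14. Gap43, the growth cone protein, had 303 and 745 RPKM at E16 and E18, against 229.6 and 208 RPKM at E13 and E14, and Stmn2, a stathmin of growing axons, had 156 and 289.7 RPKM at E16 and E18, against 97.3 and 84.7 RPKM at E13 and E14. Tubb2b, an abundant neuronal tubulin, was not called, with 2406 and 2579.6 RPKM at E16 and E18, against 1655 and 1773 RPKM at E13 and E14. Of 17 axonal motor subunits 4 rose (23.5%) and 1 fell (5.88%). Dync1i1, the neuronal intermediate chain of dynein, had 32.6 and 47.1 RPKM at E16 and E18, against 7.61 and 7.42 RPKM at E13 and E14 and stood among the 10 largest rises of all, and Kif5a, a neuronal kinesin heavy chain, had 50.03 and 71.1 RPKM at E16 and E18, against 33.9 and 30.4 RPKM at E13 and E14. Of 27 axon guidance genes 4 rose (14.8%) and 5 fell (18.5%), near the 12.2% and 13.7% of all genes tested. The netrin receptor Dcc fell, with 5.81 and 2.69 RPKM at E16 and E18, against 8.97 and 7.54 RPKM at E13 and E14, and L1cam, an axonal adhesion molecule, rose, with 53.2 and 71.9 RPKM at E16 and E18, against 42.04 and 35.9 RPKM at E13 and E14. Thy1, a glycoprotein of neuronal membranes, had 3.52 and 28.6 RPKM at E16 and E18, against 1.34 and 1.23 RPKM at E13 and E14.

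Layer genes did not move as a block. Of 16 deep-layer genes 6 rose (37.5%) and 2 fell (12.5%), and of 17 upper-layer genes 6 rose (35.3%) and 2 fell (11.8%). Over all genes tested 12.2% rose and 13.7% fell, so only the share of rises lay above that of all genes. Crym, a thyroid hormone binding protein used as a marker of deep-layer neurons, had 10.7 and 22.2 RPKM at E16 and E18, against 1.54 and 2.37 RPKM at E13 and E14. Tbr1, a factor of corticothalamic neurons, fell, with 51.01 and 29.4 RPKM at E16 and E18, against 55.9 and 58.05 RPKM at E13 and E14, a call that upper-quartile scaling did not give. Fezf2, which specifies subcerebral neurons, was not called, with 63.5 and 30.3 RPKM at E16 and E18, against 54.5 and 68.8 RPKM at E13 and E14. Mef2c, a factor of maturing upper-layer neurons, had 10.3 and 22.2 RPKM at E16 and E18, against 3.71 and 3.02 RPKM at E13 and E14. Cux2, another upper-layer gene, was not called, with 13.4 and 13.3 RPKM at E16 and E18, against 9.05 and 9.24 RPKM at E13 and E14. The median of the upper-layer list was 0.41 log2 units for the step to E16 and -0.0065 for the step from E16 to E18. Of 10 tested genes of cortical identity 4 fell (40%) and 1 rose (10%), against 13.7% and 12.2% of all genes tested. By side means 7 were lower and 3 higher. Emx1, Emx2 and Lhx2 fell. Emx1 had 31.5 and 16.1 RPKM at E16 and E18, against 44.5 and 66.8 RPKM at E13 and E14. Emx2 had 13.6 and 6.37 RPKM at E16 and E18, against 22.6 and 29.5 RPKM at E13 and E14. Lhx2 had 67.8 and 32.9 RPKM at E16 and E18, against 92.2 and 120.3 RPKM at E13 and E14.

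Genes of the ventral forebrain must be read with the E13 library in view, since Nkx2-1, the factor of the medial ganglionic eminence, had 3.12 and 2.37 RPKM at E16 and E18, against 9.44 and 2.84 RPKM at E13 and E14 and Lhx8 had 2.04 and 2.28 RPKM at E16 and E18, against 7.74 and 2.44 RPKM at E13 and E14. E13 alone was high in both. Neither gene was called, and whether the tissue taken at E13 accounts for other values of that library was not tested. Of 20 interneuron and ventral genes 4 rose (20%) and 5 fell (25%), against 12.2% and 13.7% of all genes tested. The list summed to 195 and 198 RPKM at E16 and E18, against 258 and 184 RPKM at E13 and E14. Its median slope was -0.10 log2 units per day, and -0.022 with E13 left out. The size of that median therefore depends on the E13 library, which does not settle the fall of any single gene. Npas1, a factor of interneurons and pallidal neurons, had 6.87 and 12.6 RPKM at E16 and E18, against 1.69 and 1.34 RPKM at E13 and E14. Gsx2 and Dlx2, factors of ventral progenitors, fell: Gsx2 had 2.25 and 1.17 RPKM at E16 and E18, against 5.73 and 3.81 RPKM at E13 and E14 and Dlx2 had 19.8 and 13.5 RPKM at E16 and E18, against 31.02 and 24.7 RPKM at E13 and E14. Of 12 genes of striatal projection neurons 7 rose and 2 fell. Adcy5, the adenylyl cyclase of striatal neurons, had 9.95 and 18.6 RPKM at E16 and E18, against 5.29 and 5.28 RPKM at E13 and E14. Drd2, a dopamine receptor of the indirect pathway, had 2.55 and 5.08 RPKM at E16 and E18, against 1.29 and 1.05 RPKM at E13 and E14, and Drd1, that of the direct pathway, had 1.11 and 2.76 RPKM at E16 and E18, against 0.616 and 0.389 RPKM at E13 and E14. In these 3 genes E13 and E14 lay close together, both below E16 and E18.

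Most tested genes of both glial lineages rose. Of 14 tested astrocyte genes 9 rose and 1 fell (median 0.88). Of 11 tested oligodendrocyte lineage genes 6 rose and 0 fell (median 0.93). The lists held 20 and 17 genes, and the rest averaged below 1 RPKM, so these counts cover the tested genes only. The astrocyte gene that fell was Fgfr3, given above. Aldoc was lower and not called, with 42.2 and 44.5 RPKM at E16 and E18, against 59.3 and 71.2 RPKM at E13 and E14. Gja1 was also lower and not called. Apoe, the lipid carrier made by astrocytes, had 25.5 and 129.8 RPKM at E16 and E18, against 19.2 and 16.8 RPKM at E13 and E14. Sparcl1 (hevin), a secreted astrocyte protein that promotes synapses, had 34.6 and 90.8 RPKM at E16 and E18, against 12.1 and 11.4 RPKM at E13 and E14, and Clu, clusterin, had 13.8 and 25.5 RPKM at E16 and E18, against 6.101 and 6.61 RPKM at E13 and E14. Gfap, the filament protein of astrocytes, had 0.5996 and 7.94 RPKM at E16 and E18, against 0.0267 and 0.122 RPKM at E13 and E14, being close to absent before E16. Aqp4, the water channel of mature astrocyte endfeet, averaged below 1 RPKM and was not tested, with 0.153 and 1.31 RPKM at E16 and E18, against 0.0964 and 0.135 RPKM at E13 and E14. Olig1, a factor of the oligodendrocyte lineage, had 8.27 and 43.99 RPKM at E16 and E18, against 2.72 and 1.82 RPKM at E13 and E14, with a slope of 0.77 ± 0.11 log2 units per day (SE, limma adjusted p = 0.0123). Gpr17, a receptor of committed precursors, had 1.27 and 6.85 RPKM at E16 and E18, against 0.372 and 0.187 RPKM at E13 and E14, and Sox10, the lineage factor, had 1.24 and 3.91 RPKM at E16 and E18, against 0.369 and 1.22 RPKM at E13 and E14. Pdgfra, the growth factor receptor of precursors, was below the limit for testing, with 0.897 and 2.38 RPKM at E16 and E18, against 0.313 and 0.276 RPKM at E13 and E14. Mag, a myelin protein, stayed at or below 0.257 RPKM in all 4 libraries. Another large rise was that of Scrg1, with 6.75 and 17.1 RPKM at E16 and E18, against 0.831 and 0.272 RPKM at E13 and E14.

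Markers of other cells of the brain moved less uniformly. Microglia genes rose in 5 of 12 cases and fell in none: C1qa, a complement component, had 5.67 and 8.77 RPKM at E16 and E18, against 3.77 and 4.38 RPKM at E13 and E14, and Fcrls had 3.803 and 3.88 RPKM at E16 and E18, against 1.21 and 1.32 RPKM at E13 and E14. Endothelial genes rose in 3 of 13 cases (23.1%), against 12.2% of all genes tested. Among them were Cldn5, the tight junction protein of brain vessels, and Slco1c1, the thyroxine transporter of the blood-brain barrier. Cldn5 had 23.5 and 30.3 RPKM at E16 and E18, against 15.5 and 12.2 RPKM at E13 and E14. Slco1c1 had 3.78 and 8.52 RPKM at E16 and E18, against 1.04 and 0.768 RPKM at E13 and E14. The largest rise of all was Ttr, transthyretin, the thyroid hormone carrier made by the choroid plexus, with 20.1 and 107 RPKM at E16 and E18, against 0.0317 and 0.177 RPKM at E13 and E14. At E16 and E18 its level stood far above the rest of its own list. The 14 choroid plexus genes summed to 25.2 and 114 RPKM at E16 and E18, against 3.37 and 4.14 RPKM at E13 and E14, of which Ttr was most at E16 and E18, and 12 of the 14 averaged under 1 RPKM. Folr1, a folate receptor of choroid epithelium, had 0.145 and 0.889 RPKM at E16 and E18, against 0.114 and 0.332 RPKM at E13 and E14, Clic6 had 0.683 and 0.343 RPKM at E16 and E18, against 0.106 and 0.156 RPKM at E13 and E14 and Kl, klotho, did not exceed 0.0434 RPKM. Sostdc1 had 0.7904 and 1.99 RPKM at E16 and E18, against 0.274 and 0.246 RPKM at E13 and E14. The part of choroid plexus tissue in the rise of Ttr was not tested.

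Embryonic globins fell, with the largest drop in the whole comparison. Hbb-y, the beta-type globin of primitive red cells (chr7:103851749-103853216 in mm10, minus strand), had 7.501 and 0.174 RPKM at E16 and E18, against 273 and 249 RPKM at E13 and E14, a difference of -6.37 log2 units. Hba-x, the zeta globin of the same cells, had 1.704 and 0 RPKM at E16 and E18, against 13.2 and 20.3 RPKM at E13 and E14. Its E18 value rests on 0 reads, and 3 reads would have been 0.0588 RPKM. Hbb-bh1 had 0.467 and 0 RPKM at E16 and E18, against 2.66 and 1.83 RPKM at E13 and E14, again with 0 reads at E18. On the erythroid list 4 of 9 tested genes fell and none rose: these 3 and Hba-a2, an adult-type alpha globin, which had 17.1 and 14.9 RPKM at E16 and E18, against 25.3 and 19.8 RPKM at E13 and E14. The call of Hba-a2 was lost with upper-quartile scaling, with limma-voom and with any 1 library left out. The other adult-type globins were not called. Hbb-b1 had 449 and 149 RPKM at E16 and E18, against 319 and 293 RPKM at E13 and E14, Hba-a1 had 596 and 209 RPKM at E16 and E18, against 497 and 553 RPKM at E13 and E14 and Hbb-bt had 101 and 27.5 RPKM at E16 and E18, against 85.6 and 85.5 RPKM at E13 and E14, each highest at E16 and lowest at E18. Near-identical globin copies share reads, so the split among Hba-a1, Hba-a2, Hbb-b1 and Hbb-bt is uncertain. The erythroid list summed to 1179 and 404 RPKM at E16 and E18, against 1219.8 and 1229 RPKM at E13 and E14. Klf1, a red cell transcription factor, had 0.233 and 0.108 RPKM at E16 and E18, against 0.367 and 0.323 RPKM at E13 and E14. By this sum red cell RNA was lowest at E18, and its part in other differences of E18 was not tested.

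Few genes of the respiratory chain were called. Of 36 nuclear-encoded complex I genes 1 rose and 0 fell, with a median of 0.096. Among 38 genes of complexes II to V limma called 0, with 2 at an unadjusted p under 0.05 and 2 called by limma-voom on reads. Among 13 mitochondrially encoded mRNAs it called 0, with 2 at an unadjusted p under 0.05 and 1 called by limma-voom. The line had 2 residual degrees of freedom, so these counts do not show that levels were equal. Glycolysis genes rose in 4 of 21 cases (19%) and fell in 5 (23.8%), against 12.2% and 13.7% of all genes tested. Hk1, the hexokinase of neurons, rose, with 20.02 and 35.998 RPKM at E16 and E18, against 12.7 and 12.9 RPKM at E13 and E14, while Hk2, the growth-associated form, fell, with 1.68 and 0.542 RPKM at E16 and E18, against 3.15 and 2.48 RPKM at E13 and E14. Pfkp, the platelet-type phosphofructokinase, had 8.78 and 21.2 RPKM at E16 and E18, against 5.104 and 3.36 RPKM at E13 and E14. Eno2, the neuron-specific enolase, had 16.02 and 37.1 RPKM at E16 and E18, against 10.2 and 10.96 RPKM at E13 and E14, and Slc2a3, the neuronal glucose transporter GLUT3, had 5.29 and 11.2 RPKM at E16 and E18, against 3.37 and 2.89 RPKM at E13 and E14. Pkm, pyruvate kinase, fell, with 199 and 166 RPKM at E16 and E18, against 295 and 336 RPKM at E13 and E14, where its 2 splice forms are counted as 1 gene. Mitochondrial fatty acid oxidation fell in 8 of 18 cases and rose in none (median -0.39). Acads, the short-chain acyl-CoA dehydrogenase, had 7.38 and 3.299 RPKM at E16 and E18, against 9.87 and 12.9 RPKM at E13 and E14, and Hadh, a hydroxyacyl-CoA dehydrogenase of the same pathway, had 4.01 and 2.48 RPKM at E16 and E18, against 5.71 and 6.27 RPKM at E13 and E14. Cytosolic ribosomal protein genes fell in 2 of 50 cases, with a median of -0.20. Rpl26 was not called, having 39.2 and 40.8 RPKM at E16 and E18, against 191 and 34.5 RPKM at E13 and E14, a value set apart at E13 alone. Reads of ribosomal protein genes are shared with many pseudogene copies, so such single values are uncertain.

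The series is concerned with peroxisomal ether lipid synthesis, and few of its genes were called here. Of 11 tested ether lipid genes 1 rose and 1 fell (9.09% each), near the 12.2% and 13.7% of all genes tested. Gnpat, the acyltransferase that starts ether lipid synthesis in the peroxisome (chr8:124863033-124890057 in mm10, plus strand), fell, with 24.1 and 18.6 RPKM at E16 and E18, against 30.7 and 29.3 RPKM at E13 and E14 and a slope of -0.14 ± 0.030 log2 units per day (SE, limma adjusted p = 0.0232). Agps, the enzyme of the following step, was not called, with 4.62 and 3.39 RPKM at E16 and E18, against 4.57 and 4.195 RPKM at E13 and E14. Far1, the fatty acyl-CoA reductase that supplies the alcohol, had 7.24 and 5.69 RPKM at E16 and E18, against 8.36 and 6.27 RPKM at E13 and E14 and was not called. Fads3, a desaturase-family gene on the list, rose, with 6.795 and 16.7 RPKM at E16 and E18, against 4.66 and 3.94 RPKM at E13 and E14. Peds1, which makes the vinyl ether bond of plasmalogens, was not called, with 11.4 and 14.8 RPKM at E16 and E18, against 9.87 and 10.8 RPKM at E13 and E14. Pex7, the import receptor of Agps, was not called (adjusted p = 0.989 in limma), with 1.18 and 1.32 RPKM at E16 and E18, against 1.21 and 1.43 RPKM at E13 and E14. Plaat3, a phospholipase of the same study, averaged under 1 RPKM and was not tested, with 0.601 and 0.276 RPKM at E16 and E18, against 0.983 and 1.19 RPKM at E13 and E14. Among 16 peroxins 1 fell, Pex2, with 14.3 and 8.73 RPKM at E16 and E18, against 16.2 and 15.8 RPKM at E13 and E14. Of 26 peroxisomal enzymes and transporters 5 fell (19.2%) and 1 rose (3.85%), against 13.7% and 12.2% of all genes tested. The count of falls was 5 with limma-voom, 4 with median-ratio scaling and 2 with upper-quartile scaling. The median slope of the list was -0.016 log2 units per day, and 0.0019 with E18 left out. Abcd2, an importer of very long chain fatty acids, fell, with 2.69 and 1.12 RPKM at E16 and E18, against 5.47 and 4.81 RPKM at E13 and E14, and Prdx5, a peroxiredoxin, rose, with 49.2 and 66.1 RPKM at E16 and E18, against 42.7 and 44.6 RPKM at E13 and E14. Cholesterol synthesis rose in 2 of 23 cases (8.7%), Mvd and Tm7sf2, and fell in none. That share of rises lay below the 12.2% of all genes tested. Mvd, mevalonate diphosphate decarboxylase, had 23.4 and 47.6 RPKM at E16 and E18, against 17.9 and 22.2 RPKM at E13 and E14.

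Chromatin and RNA-binding genes changed by subunit and paralog. The BAF remodeling complex exchanges subunits as progenitors become neurons. Actl6a, its progenitor actin-like subunit, fell, with 17.3 and 6.04 RPKM at E16 and E18, against 29.7 and 31.01 RPKM at E13 and E14, and Actl6b, the neuronal counterpart, rose, with 47.2 and 53.2 RPKM at E16 and E18, against 30.2 and 28.9 RPKM at E13 and E14. In RPKM Actl6b was the higher of the pair at E16 and E18, and the 2 were close at E13 and E14. Of the whole list of 19 genes 8 fell and 3 rose. Ptbp1, the splicing repressor of progenitors, fell, with 36.4 and 18.02 RPKM at E16 and E18, against 56.6 and 68.8 RPKM at E13 and E14, and Rbfox1, a neuronal splicing factor, rose, with 12.9 and 15.03 RPKM at E16 and E18, against 7.35 and 6.87 RPKM at E13 and E14. Msi1, an RNA-binding protein of stem cells, had 43.1 and 21.03 RPKM at E16 and E18, against 53.8 and 58.3 RPKM at E13 and E14, and it fell. Imprinted genes fell in 6 of 20 cases (30%) and rose in 2 (10%), against 13.7% and 12.2% of all genes tested. Grb10, an adaptor that restrains insulin signalling, had 10.98 and 3.32 RPKM at E16 and E18, against 26.5 and 25.7 RPKM at E13 and E14. Mest had 27.5 and 10.6 RPKM at E16 and E18, against 48.03 and 37.4 RPKM at E13 and E14, and Dlk1, a Notch-related growth regulator, had 2.18 and 0.894 RPKM at E16 and E18, against 4.86 and 3.43 RPKM at E13 and E14, all of these falling. Meg3, the maternally expressed long noncoding RNA of the Dlk1 region, rose, with 62.9 and 129 RPKM at E16 and E18, against 49.8 and 37.1 RPKM at E13 and E14. Immediate early genes went both ways, 4 rising (33.3%) and 3 falling (25%) of 12. Btg2, also known as an antiproliferative gene of neurogenic progenitors, had 16.7 and 5.24 RPKM at E16 and E18, against 33.1 and 32.4 RPKM at E13 and E14, and Jun had 20.8 and 12.6 RPKM at E16 and E18, against 33.8 and 37.7 RPKM at E13 and E14, both falling. Nr4a3 rose, with 8.85 and 9.46 RPKM at E16 and E18, against 2.85 and 3.29 RPKM at E13 and E14, and Egr1 rose, with 0.894 and 2.44 RPKM at E16 and E18, against 0.527 and 0.247 RPKM at E13 and E14. Over all lists 186 of the 890 listed genes tested rose and 204 fell.

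**Figure D3:**
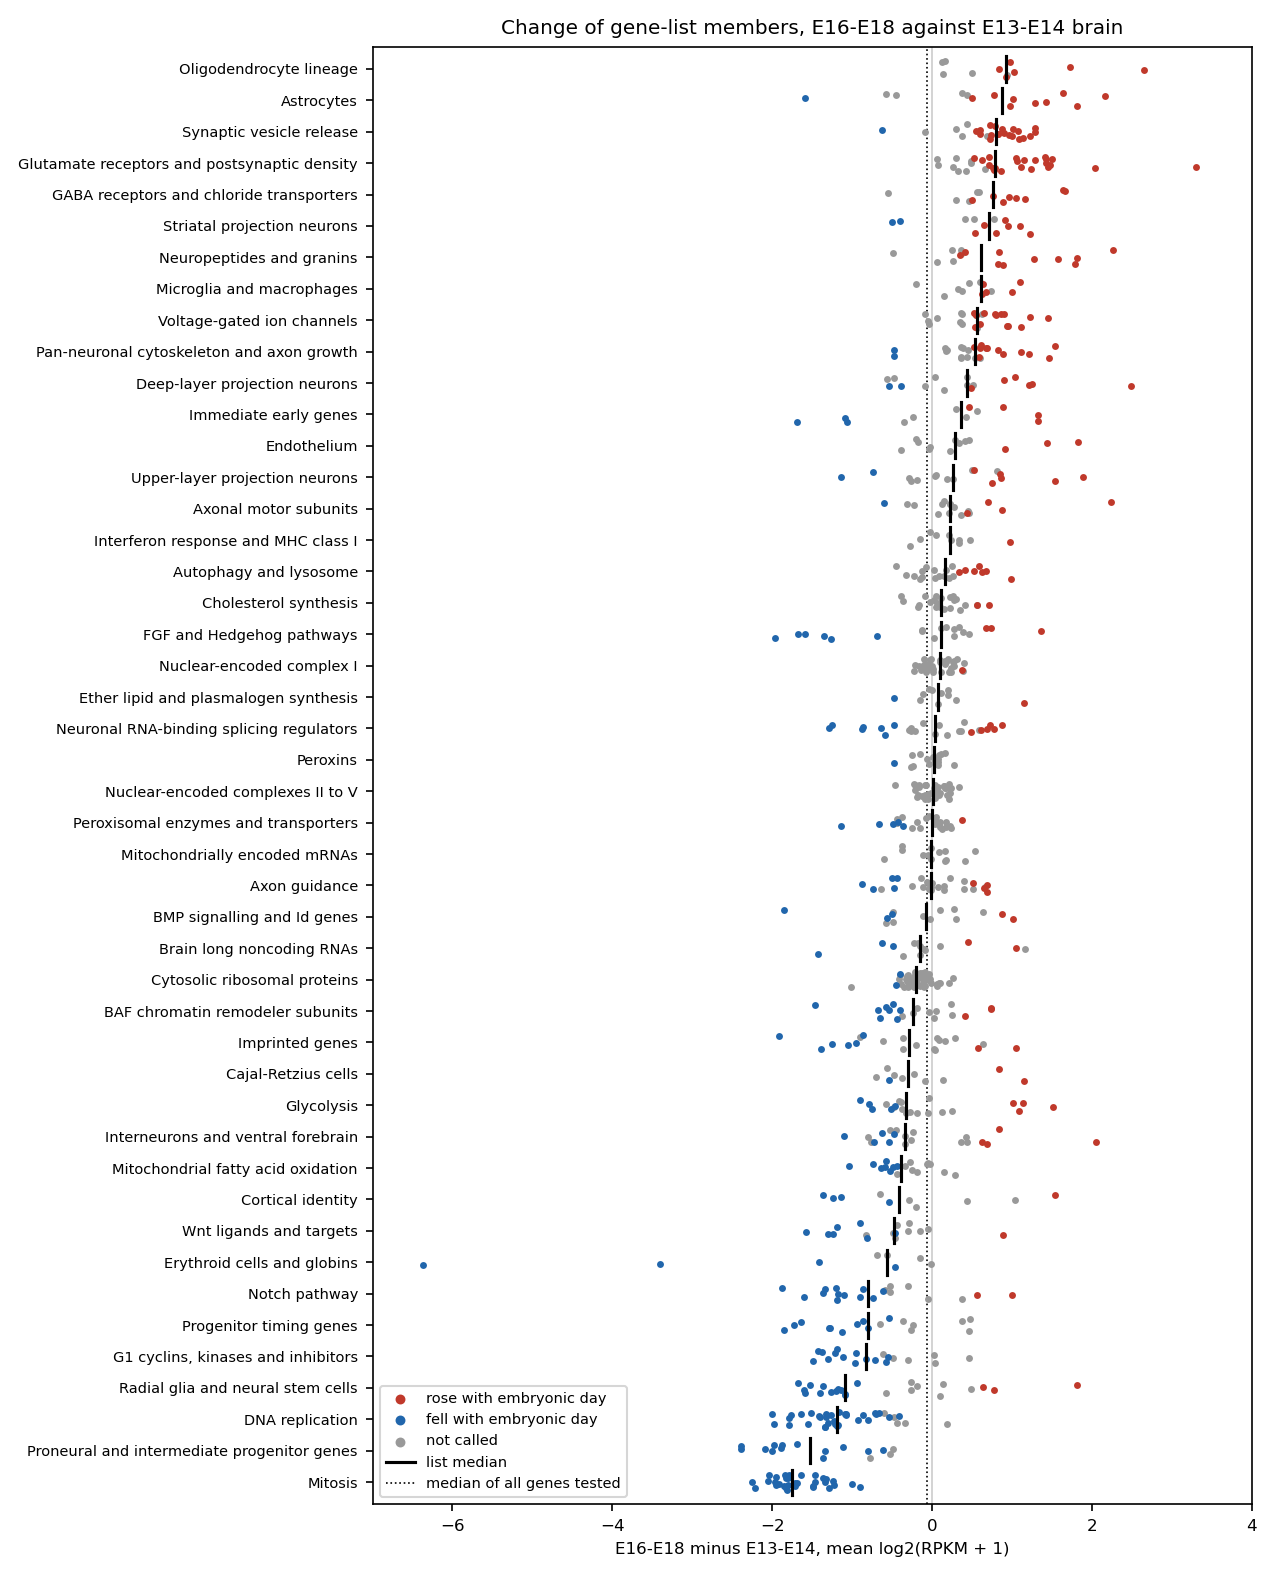
Difference between E16-E18 and E13-E14 in mean log2(RPKM + 1) for each tested member of the lists with at least 9 tested genes, with a black bar at each list's median and a dotted line at the median of all genes tested (-0.06). Mitosis genes (median -1.75) lie lowest, and oligodendrocyte (0.93), astrocyte (0.88) and synaptic vesicle genes (0.81) lie highest.

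Some changes appeared at E18 only. A gene was counted when E18 lay at least 1 log2 unit beyond each of E13, E14 and E16 and those 3 libraries lay within 0.5 of one another. This is a description with no test. It took in 113 genes that were higher at E18 (0.875%) and 91 that were lower (0.705%), and with median-ratio scaling the split was 160 higher and 64 lower. The same count for the E13 library gave 6 higher and 7 lower, and 3 and 3 for both E14 and E16, but E18 is the last day of the series and 2 days from its neighbour, so these counts do not make it unusual. Of these genes 84 of the 113 and 65 of the 91 were also called by the line. At a distance of at least 2 log2 units 2 genes were higher and 1 was lower: Nts, Penk and Mfap4.

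The genes higher at E18 alone were led by secreted peptides and signalling genes of neurons. Nts, neurotensin (chr10:102481756-102490486 in mm10, minus strand), had 55.4 RPKM at E18, against 4.74, 4.72 and 5.91 RPKM at E13, E14 and E16. Penk, proenkephalin, the precursor of the enkephalins, had 18.6 RPKM at E18, against 2.02, 1.98 and 3.12 RPKM at E13, E14 and E16. Cck, cholecystokinin, had 35.8 RPKM at E18, against 7.58, 7.77 and 10.97 RPKM at E13, E14 and E16. E13, E14 and E16 lay within 0.5 units of one another on the log2(RPKM + 1) scale in these peptides. Scg2, a granin of secretory vesicles, and Pcsk2, the convertase that cuts prohormones, were also in the group: Scg2 had 25.9 RPKM at E18, against 9.85, 8.73 and 11.6 RPKM at E13, E14 and E16, and Pcsk2 had 6.17 RPKM at E18, against 1.44, 1.69 and 2.13 RPKM at E13, E14 and E16. These were 5 of the 16 tested neuropeptide genes. Ache, acetylcholinesterase, had 10.2 RPKM at E18, against 1.53, 1.41 and 2.13 RPKM at E13, E14 and E16. Kcnj4, an inwardly rectifying potassium channel, had 5.53 RPKM at E18, against 0.541, 0.487 and 1.03 RPKM at E13, E14 and E16, and Prkcb, protein kinase C beta, had 10.1 RPKM at E18, against 2.598, 2.17 and 2.73 RPKM at E13, E14 and E16. Syt13, a member of the synaptotagmin family, had 10.9 RPKM at E18, against 2.49, 2.49 and 2.19 RPKM at E13, E14 and E16, with E16 the lowest of its 4 values. The line did not call Syt13. Camk2a, the alpha subunit of calcium/calmodulin kinase II, had 23.1 RPKM at E18, against 8.27, 7.299 and 7.02 RPKM at E13, E14 and E16. Syp, synaptophysin, the vesicle membrane protein, had 99.8 RPKM at E18, against 34.8, 34.7 and 43.3 RPKM at E13, E14 and E16. Grm2, a presynaptic glutamate receptor, and Grik4, a kainate receptor subunit, belonged here too, Grm2 with 8.79 RPKM at E18, against 2.59, 3.12 and 3.44 RPKM at E13, E14 and E16 and Grik4 with 3.43 RPKM at E18, against 0.825, 0.799 and 1.12 RPKM at E13, E14 and E16.

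Outside neurons, Olig2, the factor of the oligodendrocyte lineage, had 18.3 RPKM at E18, against 5.53, 3.896 and 5.15 RPKM at E13, E14 and E16. The line did not call Olig2. Its neighbour and relative Olig1 was already higher at E16, as given above, and so Olig1 was not in this group. Aif1, the microglial protein Iba1, had 7.54 RPKM at E18, against 1.52, 1.97 and 2.51 RPKM at E13, E14 and E16. Larp6, an RNA-binding protein, had 11.3 RPKM at E18, against 2.38, 3.19 and 3.14 RPKM at E13, E14 and E16, and Sertm1, a gene of a small membrane protein, had 12.8 RPKM at E18, against 3.06, 2.31 and 3.27 RPKM at E13, E14 and E16. In all, 13 listed genes were higher at E18 alone; besides those named they were Lmo4, with 77.8 RPKM at E18, against 30.7, 27.5 and 36.98 RPKM at E13, E14 and E16, and Ccn2, with 4.37 RPKM at E18, against 0.748, 0.9796 and 1.24 RPKM at E13, E14 and E16. The named list members outside the 10 leading genes were picked after their values were seen.

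The genes lower at E18 alone included late markers of neurogenesis. Insm1, a factor that drives the formation of basal progenitors, had 16.4 RPKM at E18, against 47.7, 57.6 and 54.7 RPKM at E13, E14 and E16. Neurod1, which acts in newborn neurons, had 9.77 RPKM at E18, against 23.5, 24.2 and 28.2 RPKM at E13, E14 and E16, and Neurod4 had 0.10996 RPKM at E18, against 1.28, 1.42 and 1.38 RPKM at E13, E14 and E16. In these 3 genes of the intermediate progenitor list E16 was no lower than E13, unlike Neurog2 and Eomes. Nfia and Nfib were lower, Nfia with 7.71 RPKM at E18, against 22.5, 24.6 and 19.9 RPKM at E13, E14 and E16 and Nfib with 15.2 RPKM at E18, against 42.5, 42.2 and 46.3 RPKM at E13, E14 and E16. Igf2bp3, an RNA-binding protein of the fetal brain, had 2.06 RPKM at E18, against 7.39, 7.36 and 5.196 RPKM at E13, E14 and E16. Sox5, a factor of deep-layer neurons, had 3.53 RPKM at E18, against 9.35, 8.52 and 9.04 RPKM at E13, E14 and E16, and Nhlh2 had 2.17 RPKM at E18, against 6.86, 7.697 and 7.17 RPKM at E13, E14 and E16. Rbpj had 1.23 RPKM at E18, against 3.53, 4.32 and 4.22 RPKM at E13, E14 and E16. Among the leading genes, Mfap4, a glycoprotein of the extracellular matrix, had 8.87 RPKM at E18, against 44.1, 59.6 and 47.8 RPKM at E13, E14 and E16, at a distance of -2.19 log2 units. Phf21b, a PHD finger protein, had 11.02 RPKM at E18, against 55.99, 57.7 and 41.04 RPKM at E13, E14 and E16, and Ezr, ezrin, which links membrane to actin, had 12.6 RPKM at E18, against 50.6, 46.1 and 37.7 RPKM at E13, E14 and E16. Cenpm, a centromere protein, had 2.04 RPKM at E18, against 10.1, 9.703 and 8.44 RPKM at E13, E14 and E16, and Cdk2ap1, a partner of the kinase Cdk2, had 34.7 RPKM at E18, against 120.0, 130.5 and 99.8 RPKM at E13, E14 and E16. Tcf19 had 4.11 RPKM at E18, against 19.3, 19.5 and 14.1 RPKM at E13, E14 and E16, Ier5 had 11.3 RPKM at E18, against 34.3, 44.4 and 41.3 RPKM at E13, E14 and E16, and the noncoding RNA Snhg18 had 1.52 RPKM at E18, against 7.504, 9.78 and 6.94 RPKM at E13, E14 and E16. Among the leading genes the line did not call Mfap4, Ier5, Insm1 or Hbb-bt. Other genes of this group that it did not call included Neurod1, Neurod4, Nfib, Sox5 and Rbpj. Hbb-bt, an adult beta globin, was the remaining leading gene, with 27.5 RPKM at E18, against 85.6, 85.5 and 101 RPKM at E13, E14 and E16, and moved with the lower globin sum of E18; whether blood content touches the other genes lower at E18 was not tested.

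**Figure D4:**
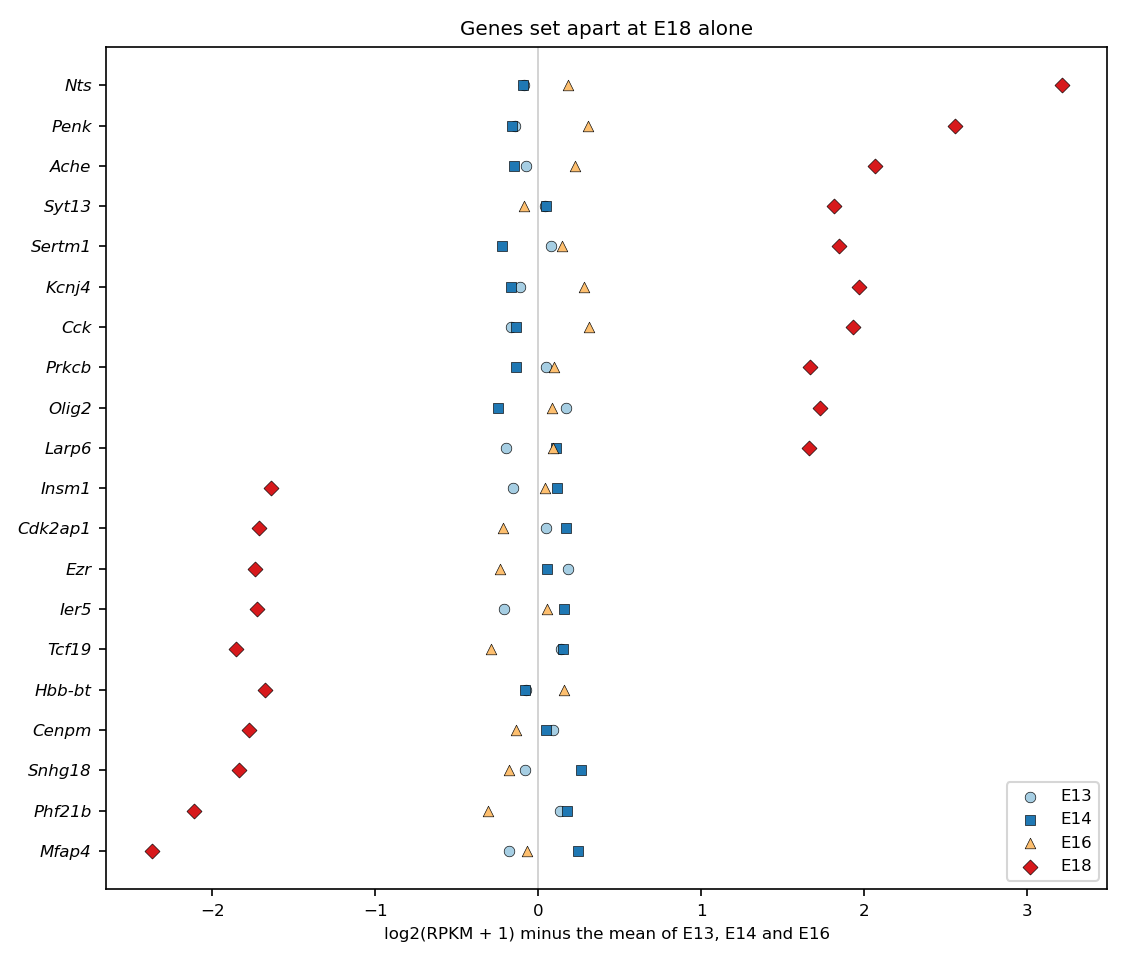
Values of the 10 highest and 10 lowest genes set apart at E18 alone, as log2(RPKM + 1) minus the mean of E13, E14 and E16, with 1 library per symbol. E18 (diamonds) lies at least 1 unit from the other 3 libraries in every row, farthest for Nts upward and Mfap4 downward.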

How the data were processed

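The deposited table holds RPKM values made by the authors. The submitters' processing notes name STAR 2.7.9a, HTSeq 0.6.0 and build mm10, and the annotation is not given in the sources used here. Multiplied by exon length (GENCODE M21) and read total, 97.7% of nonzero values in each library came within 0.01 of a whole read, and read totals were recovered in this way. Values were taken as log2(RPKM + 1), which understates changes of low genes, and genes averaging at least 1 RPKM over E13, E14, E16 and E18 were kept. limma 3.58.1 (R 4.3.3, trended variances, Benjamini-Hochberg adjustment over all 12912 genes, threshold 0.05) compared E16 and E18 with E13 and E14, and also fitted a line on embryonic day. The line, listed as an alternative, was used for calls because the comparison by sides called no gene. Python 3.11.15 with pandas 2.3.3 made the summaries. The scripts were tested on simulated data.

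The members and the gene lists were chosen with earlier results of these data known. Of 1115 list entries 4 had no matching gene. Genes were named by rule: the 10 largest called rises and falls and the 10 highest and lowest genes of E18 alone with at least 5 RPKM, up to 6 called and 3 not called members of each list, and the genes the series is about, without clone, predicted or pseudogene names. A few genes the rule named are not reported here. Fabp7, Slc1a3, Mfge8, Nfia, Aqp4, Pdgfra, Mag, Mcm6, the choroid plexus genes besides Ttr, Klf1, the sex chromosome genes and some list members at E18 alone were named after their values were seen. Nothing in the labels gives separate animals for the libraries, so p-values measure the spread between these samples only. The knockdown, overexpression and culture libraries were not used here. Promoters came from a RefSeq table of build GRCm38.p6.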

Additional observations from a re-analysis of the deposited data

How the results depend on the processing

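By sides, limma called 0 genes with a pseudocount of 0.1, no filter on low values, a mean of at least 5 RPKM, median-ratio or upper-quartile scaling and voom on recovered reads. It called 3 genes (1 of them on the lists) with all 6 stage libraries, 3346 (390 on the lists) by the line, and 0 to 6153 with a library left out (0 to 584 on the lists), where 1295 came without E18 and 6153 without E16. The line called 3087 to 3737 genes under scalings, voom and the small pseudocount, 2250 at a mean of at least 5 RPKM, 5845 with all 6 libraries and 0 with no filter, where 6713 passed unadjusted. Leaving out a library gave 2 to 3243 genes. No paired analysis was possible because each stage is 1 library and the stages carry no replicate numbers. Genes with sides at least 2-fold apart numbered 200 higher and 113 lower with the pseudocount of 0.1, and 95 to 888 higher and 68 to 769 lower with a library left out. Genes higher at E18 alone numbered 37 at a mean of at least 5 RPKM, 48 and 311 when E13, E14 and E16 had to lie within 0.3 or 1, and 2 at a distance of 2. Those lower numbered 176 with the pseudocount of 0.1, 42 and 273 within 0.3 or 1, and 1 at a distance of 2. The cause of these shifts was not tested, except that fewer libraries or a changed limit alter what is counted by construction. Settings for the line were added after its result was seen. Of 162 called genes named in the text, 160 lost their call without E14 (Hbb-y and Ttr were still called) and 120 without E18, 5 without E13 and 1 without E16. Without any filter all 162 lost it, and scalings, voom or the small pseudocount took it from 1 to 3 each, among them Hes5, Tbr1, Prkcb, Hba-a2 and Egr1. Slopes changed sign for Nfia, at 0.00625 per day with all 6 libraries, and for Cwc22 and Slc7a11, at -0.77 to 0.98 and -0.56 to 0.56 per day with a library left out. Depth limits genes near 0 reads, such as Hba-x at E18.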

Other observations

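A few genes changed sharply between libraries without following embryonic day, and were picked for this after their values were seen. Cwc22, a splicing factor, had 59.1 and 3.32 RPKM at E16 and E18, against 5.32 and 35.3 RPKM at E13 and E14, so that E16 and E14 were high and E18 and E13 low. Slc7a11, the cystine transporter, had 19.5 and 0.437 RPKM at E16 and E18, against 5.99 and 5.77 RPKM at E13 and E14, and E16 stood alone above the others. The processed pseudogene Rpsa-ps10, a copy of a ribosomal protein gene, had 1174 and 27.5 RPKM at E16 and E18, against 664 and 749 RPKM at E13 and E14. The line in limma called none of these 3 genes. Resp18, a secretory granule protein of neuroendocrine cells, had 3.38 and 18.4 RPKM at E16 and E18, against 4.64 and 2.66 RPKM at E13 and E14, with its highest value at E18, and it was not called either. The labels give no litter, strain or sex for these libraries, and what sets these genes apart was not tested.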
